A study of Mus musculus with 6 samples.

Results

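The erythroid miRNAs miR-451a, miR-144 and miR-486 were described in skin of mice exposed to ultraviolet A (UVA) and of mice that were not. Members were chosen by name as the rows for miR-451a, miR-144, miR-486a and miR-486b in the deposited count table, where they are written mmu-miR-451a, mmu-miR-486a-5p>mmu-miR-486b-5p (identical 5p sequences, here miR-486-5p) and so on. This gave 6 of 1480 entries, and all 6 passed the filter on low counts, as did 499 entries in all. The UVA group received light every second day over 4 months, 89.88 J/cm2 in sum, and the other group received none. Each group has 3 small RNA libraries from whole skin. The labels read here state no strain, age or sex and no number of animals per library, so the p-values measure spread between libraries, which may be technical.

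miRNAs are short RNAs that guide Argonaute proteins to matching mRNAs, mainly through the seed, bases 2 to 8 counted from the 5′ end. miR-451a and miR-144 are made from a shared precursor that the transcription factor GATA1 switches on in red blood cell precursors, and both remain abundant in mature red cells. In mice miR-451a limits the 14-3-3 protein Ywhaz and protects red cells from oxidative damage. miR-144 is known from human red cells to target the mRNA of NRF2, a regulator of antioxidant genes. miR-486 lies in Ank1, the gene of red cell ankyrin, and is also made in skeletal and heart muscle, where it targets Foxo1. In whole skin, reads of these miRNAs can come from blood in the vessels, and those of miR-486 from muscle as well. Fewer cells of a type and less RNA per cell cannot be told apart in such samples.

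The mature sequences are shown first, since the members differ in seed, base composition and hairpin. They are printed as in the deposited table, 5′ to 3′ with T for U, and capitals mark bases 2 to 8. miR-101a-3p is no member and is shown for its near match to the seed of miR-144-3p.
miR-451a: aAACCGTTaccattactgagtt
miR-144-5p: gGATATCAtcatatactgtaagt
miR-144-3p: tACAGTATagatgatgtact
miR-486a-5p and miR-486b-5p, merged: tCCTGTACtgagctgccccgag
miR-486a-3p: cGGGGCAGctcagtacaggat
miR-486b-3p: cGGGGCAGctcagtacagga
miR-101a-3p: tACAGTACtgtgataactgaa
The members carry 5 different seeds, of which the 3p forms of miR-486 share one with each other and with 1 predicted miRNA of the table. miR-486b-3p is miR-486a-3p without its last base, 1 edit apart, so the split of reads between these entries is uncertain. No other entry shares the seed of miR-451a, of either arm of miR-144 or of miR-486-5p. Bases 2 to 7 of miR-144-3p recur in 1 other entry, miR-101a-3p, and the difference in the seed is T8C (from miR-144-3p to miR-101a-3p, counted from the 5′ end). miR-101a-3p, known from skin and other tissues, was not called (log2FC, the log2 fold change of UVA over non-irradiated, -2.06, SE 0.90, edgeR adjusted p = 0.116). The nearest other entry lies 8 edits from miR-451a and 7 edits from miR-486-5p and from miR-144-3p.

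miR-451a has a single row and miR-144 a row for each arm, and their hairpins are shown for that contrast. They are from RefSeq (GRCm38.p6), where the entries of miR-451a and of both miR-144 arms matched letter for letter, and capitals mark the mature sequences.
Mir144 hairpin: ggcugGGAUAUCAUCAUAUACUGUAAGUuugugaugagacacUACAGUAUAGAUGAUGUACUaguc
Mir451a hairpin: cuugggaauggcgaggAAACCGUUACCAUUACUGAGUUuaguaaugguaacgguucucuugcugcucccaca
In the 66-base Mir144 hairpin the arms take bases 6 to 28 and 43 to 62, on either side of the loop. In the 72-base Mir451a hairpin the mature sequence runs from base 17 to base 38, and a 16-base run of it, positions 2 to 17, is complementary to the stretch that follows. As background, Argonaute 2 itself cuts this hairpin, without Dicer, and no partner strand is made. Mir144 lies on chromosome 11 at 78073005 to 78073070 and Mir451a at 78073170 to 78073241, both on the plus strand with 99 bases between them, and neither has a host gene in the GENCODE annotation of GRCm38. Mir451b is annotated on the opposite strand at the coordinates of Mir451a.

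The hairpin of miR-486a, Mir486, spans 23142555 to 23142682 of chromosome 8 on the plus strand. It is intronic in 15 annotated Ank1 transcripts and in the antisense gene Gm15816, and no exon of theirs covers it. Mir3107, the hairpin of miR-486b, lies within it on the minus strand at 23142573 to 23142662. A 20-base run of miR-486a-3p is the exact complement of miR-486-5p. Of the Ank1 transcripts, 4 begin within 5000 bases before Mir486. As background, muscle makes a short Ank1 transcript from an internal promoter.

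The libraries held 7653819 to 17192811 miRNA reads. The keratinocyte miRNA miR-203-3p was abundant in every library, at 22900 to 68200 counts-per-million (CPM, scaled with the TMM method of edgeR). The epidermal miR-205-5p was abundant in every library as well but differed between the groups. It had 3480 to 7510 CPM under UVA and 514 to 891 CPM in non-irradiated skin (log2FC 2.97, SE 0.47, edgeR adjusted p = 0.0045). Non-irradiated replicates 1 and 2 held few entries with 1 to 9 reads, 21 and 34 against 299 to 591 in the other libraries. Of the 499 tested miRNAs, edgeR's quasi-likelihood test called 109 (adjusted p up to 0.05), and the median log2FC of all tested was 0.27. Scaled by the authors' total reads, the median was 1.07.

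None of the 6 erythroid entries was called between UVA and non-irradiated skin by edgeR, against 21.8% of all tested miRNAs. At an unadjusted p of 0.05 the count was 1 of 6, miR-486-5p, against 40.7% of all tested, and the DESeq2 Wald test called that same entry, against 38.7% of all tested. In 4 of 6 entries the log2FC was negative and in 2 positive, and the median was -1.38. The negative ones were miR-144-5p and the entries of miR-486, which share a locus, and the positive ones miR-451a and miR-144-3p. Within the UVA group the red cell cluster and miR-486 did not share a pattern. Of the UVA libraries, replicate 1 was the highest for miR-451a and both arms of miR-144, and replicate 3 for miR-486-5p. For miR-144-5p, UVA replicate 1 still lay within the non-irradiated range. miR-486-5p was lower in all 3 UVA libraries than in non-irradiated skin in TMM-scaled CPM, though not as an unscaled share of reads.

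miR-451a, the most specific red cell miRNA of the set, had 2950, 517 and 643 CPM in UVA replicates 1 to 3 (46290, 7136 and 6274 reads). In non-irradiated replicates 1 to 3 it had 1210, 516 and 1220 CPM (14607, 6757 and 8382 reads). UVA replicate 1 alone was above all non-irradiated libraries, and the other UVA libraries lay near the lowest of them. The group means were 1371 ± 1370 CPM under UVA against 983 ± 405 CPM in non-irradiated skin (SD, n = 3 per group), with a log2FC of 0.48 (SE 0.69, edgeR adjusted p = 0.632). Without UVA replicate 1 the UVA mean was 580 CPM and the log2FC was -0.85 (SE 0.52, edgeR adjusted p = 0.26). By rank miR-451a was entry 32 in UVA replicate 1 and entries 53 to 73 in the other libraries.

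miR-144-3p, whose seed acts on NRF2 mRNA in human cells, had 143, 10.6 and 8.20 CPM under UVA and 46.6, 12.1 and 17.6 CPM in the non-irradiated libraries. UVA replicate 1 held 2242 reads and the other UVA libraries 146 and 80. The groups overlapped, because that single library was above and the other 2 below all non-irradiated libraries. The log2FC was 1.08 (SE 1.04, edgeR adjusted p = 0.454), and -1.51 (SE 0.76, edgeR adjusted p = 0.167) without UVA replicate 1. The highest UVA library exceeded the lowest 16.5-fold after adding 0.5 CPM, the 6th largest such spread among the 499 tested miRNAs, whose median was 2.45-fold.

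miR-144-5p, the other arm, had 31.3, 6.73 and 6.56 CPM under UVA and 41.6, 9.85 and 52.3 CPM in the non-irradiated libraries. Here UVA replicate 1 lay within the non-irradiated range, and the other 2 below it. As unscaled shares of miRNA reads these 2 libraries lay above non-irradiated replicate 2 for both arms. The log2FC was -1.21 (SE 0.82, edgeR adjusted p = 0.275), and -2.46 (SE 0.80, edgeR adjusted p = 0.0528) without UVA replicate 1.

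**Figure D1:**
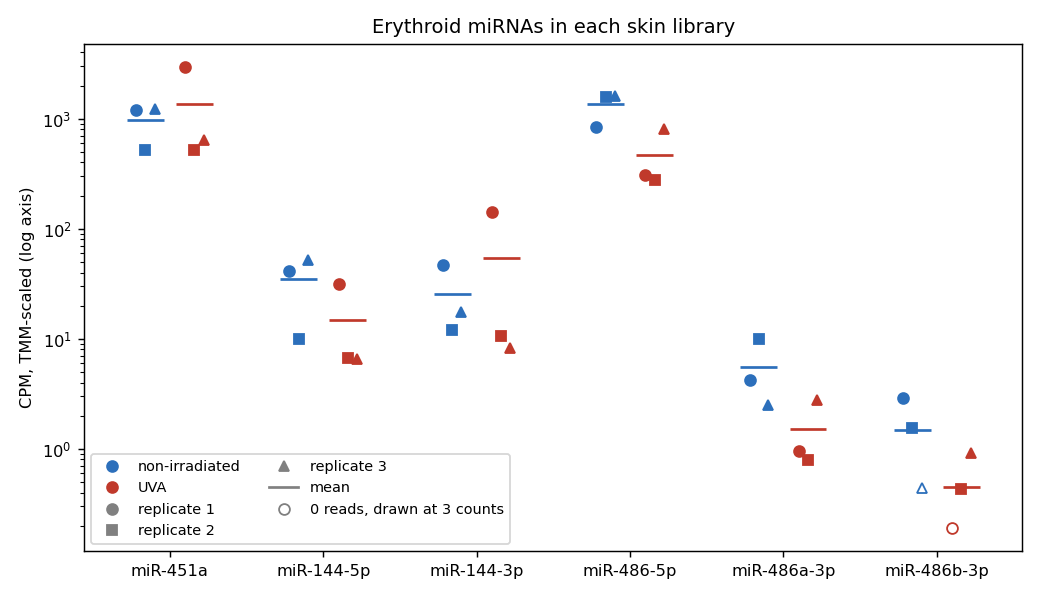
CPM of the 6 erythroid entries (log axis) in each library, with blue for non-irradiated, red for UVA, a marker shape per replicate and a bar for the group mean. Open symbols are libraries with 0 reads, drawn at 3 counts. UVA replicate 1 stands above the other UVA libraries for miR-451a and both arms of miR-144, and the 3 UVA libraries lie below the non-irradiated ones for miR-486-5p in this TMM scaling, but not as unscaled shares of reads.

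miR-486-5p, the main product of the Ank1 intron, had 307, 280 and 804 CPM in UVA replicates 1 to 3 (4816, 3862 and 7847 reads). In non-irradiated replicates 1 to 3 it had 846, 1580 and 1620 CPM (10181, 20681 and 11147 reads). In this scaling the groups did not overlap, by a narrow margin, since UVA replicate 3 lay just under non-irradiated replicate 1. As an unscaled share of miRNA reads miR-486-5p held 0.0376%, 0.0339% and 0.0958% under UVA and 0.07%, 0.12% and 0.146% in non-irradiated replicates 1 to 3. The order of the 2 libraries nearest each other was then reversed and the groups overlapped, as they did in RPM over the authors' total reads (220, 181 and 383 under UVA against 345, 679 and 414). Groups that did not overlap were found for 48.3% of all tested miRNAs, and for 20% with UVA as the lower group. The means were 464 ± 295 CPM under UVA against 1349 ± 437 CPM in non-irradiated skin (SD, n = 3 per group), with a log2FC of -1.54 (SE 0.55, edgeR adjusted p = 0.0661, unadjusted p = 0.0184, which ranks 138th of 499). The entry thus missed the threshold by edgeR, and it passed it by the DESeq2 Wald test (log2FC -1.59, SE 0.55, adjusted p = 0.0151) and by limma-voom (-1.67, SE 0.50, adjusted p = 0.0321), which called 38.7% and 30.3% of all tested miRNAs. It also passed with edgeR without a filter on low counts (-1.72, adjusted p = 0.0341) and without UVA replicate 3 (-2.19, SE 0.48, edgeR adjusted p = 0.0178). In the authors' deposited table its log2FC is -1.55, with p = 0.014 and q = 0.187. In the same authors' deposited table the log2FC is 0.64 for miR-451a, 1.29 for miR-144-3p and -1.04 for miR-144-5p, each with a p of 0.367 or higher. Of its entries, 12.8% have a p and 3.99% a q up to 0.05.

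The 3p entries of miR-486, the minor strand, were scarce. miR-486a-3p had 15, 11 and 27 reads under UVA and 51, 131 and 17 in the non-irradiated libraries, with a log2FC of -1.90 (SE 0.94, edgeR adjusted p = 0.152). Its groups overlapped, since UVA replicate 3 exceeded non-irradiated replicate 3 at 2.77 against 2.48 CPM. miR-486b-3p had 0, 6 and 9 reads in UVA and 35, 20 and 0 in non-irradiated replicates 1 to 3. A count of 0 allows a level of up to 0.191 CPM in UVA replicate 1 and 0.437 CPM in non-irradiated replicate 3. Its log2FC of -1.75 had an SE of 1.55 (edgeR adjusted p = 0.416).

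**Figure D2:**
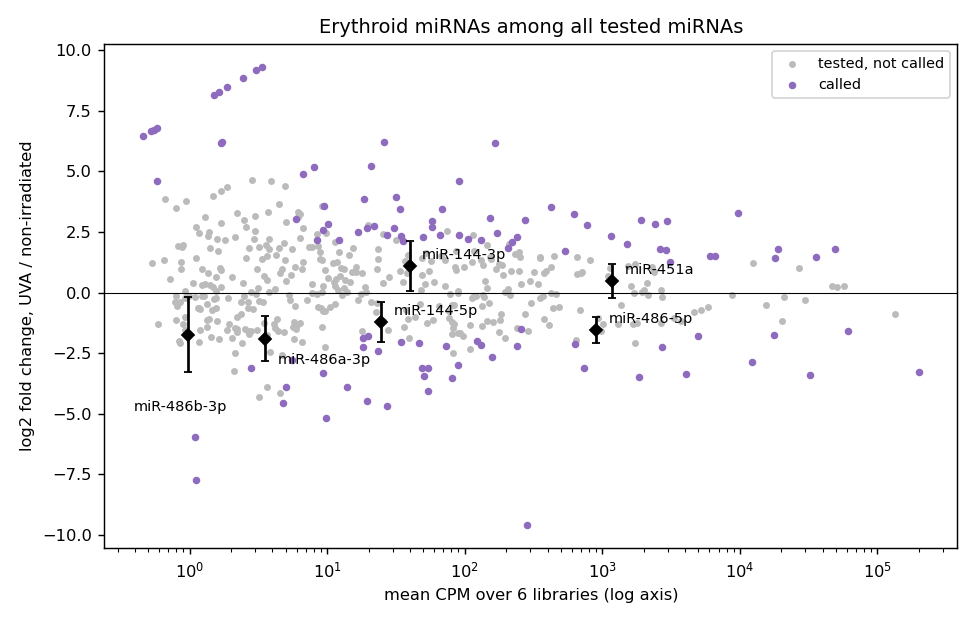
Log2 fold change (log2FC), UVA over non-irradiated, against mean CPM over the 6 libraries (log axis) for the 499 tested miRNAs. Called miRNAs are purple, the 6 erythroid entries are black diamonds with bars of 1 SE, and none of the 6 is called, with miR-486-5p at -1.54 and miR-451a at 0.48.

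The share of miRNA reads in all 6 entries together needs no scaling factor, but it depends on the other miRNAs in the denominator. The difference of the group means, UVA minus non-irradiated, was 0.0305 percentage points. Without the 5 most abundant other entries in the denominator it was -0.118 points. With all entries the share was 0.42%, 0.0988% and 0.175% in UVA replicates 1 to 3 and 0.178%, 0.162% and 0.262% in non-irradiated replicates 1 to 3. UVA replicate 1 held the largest share and UVA replicate 2 the smallest, so the groups overlapped on both sides. The means were 0.231% ± 0.168 and 0.201% ± 0.0534 (SD, n = 3 per group; exact permutation test, 2-sided, p = 0.9). The exact Clopper-Pearson 95% intervals of these shares had half-widths of at most 0.00363 percentage points and cover counting error only. This comparison and the 8 ratios below it make 9 exact tests, each with a smallest possible p of 0.1 for 3 against 3.

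Ratios between miRNAs of the same library also need no scaling factor. miR-486-5p had 0.104, 0.541 and 1.25 reads per read of miR-451a in UVA replicates 1 to 3 and 0.697, 3.06 and 1.33 in the non-irradiated libraries. UVA replicate 3 lay within the non-irradiated range and the other 2 below it, so the groups overlapped (difference of the mean log2 ratios -1.78, SE 1.22; exact permutation test, 2-sided, p = 0.2, adjusted p = 0.36).

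miR-144-5p followed miR-451a closely within the UVA group. It had 0.0106, 0.0131 and 0.0103 reads per read of miR-451a in UVA replicates 1 to 3, and 0.0343, 0.0192 and 0.0429 in the non-irradiated libraries. All 3 UVA ratios were lower than the non-irradiated ones, by 1.43 in mean log2 ratio (SE 0.36), a ratio chosen after its values were seen and not tested. miR-144-3p had 0.0484, 0.0205 and 0.0128 reads per read of miR-451a under UVA and 0.0384, 0.0235 and 0.0145 in the non-irradiated libraries, and these ranges overlapped.

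The arms of miR-144 differed in the same direction. The 5p arm had 0.219, 0.638 and 0.801 reads per 3p read in UVA and 0.893, 0.817 and 2.96 in non-irradiated replicates 1 to 3. The groups did not overlap, though UVA replicate 3 and non-irradiated replicate 2 were nearly equal (difference of mean log2 ratios -1.42, SE 0.83; exact permutation test, 2-sided, p = 0.1, adjusted p = 0.225). In miR-486 the 5p reads outnumbered the summed 3p reads 311-, 221- and 215-fold in UVA and 118-, 137- and 637-fold in non-irradiated skin, with overlap (exact permutation test, 2-sided, p = 1).

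**Figure D3:**
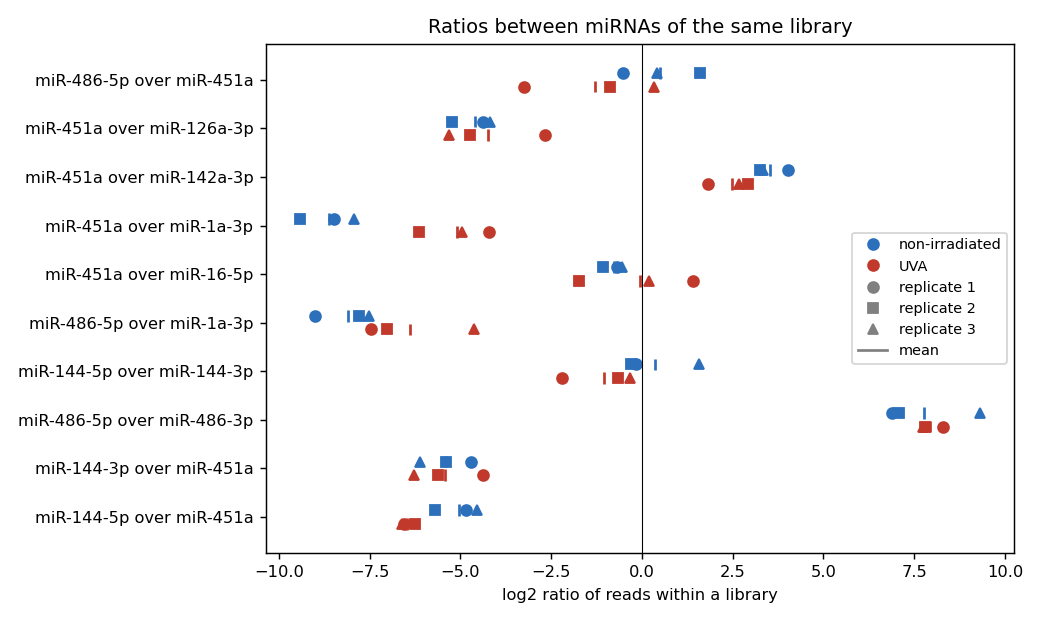
Log2 ratio of reads between pairs of miRNAs within each library, with blue for non-irradiated, red for UVA, a marker shape per replicate and a tick for the group mean. The groups are apart for miR-451a over miR-142a-3p and over miR-1a-3p, for miR-486-5p over miR-1a-3p, for miR-144-5p over miR-144-3p and for miR-144-5p over miR-451a.

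Reference miRNAs of vessels, white blood cells, muscle and red cells were set beside miR-451a in the same libraries. Relative to miR-126a-3p, an endothelial miRNA, miR-451a had 0.158, 0.0373 and 0.0251 reads in UVA and 0.0481, 0.0267 and 0.0548 in non-irradiated replicates 1 to 3, with overlap (exact permutation test, 2-sided, p = 0.9). Relative to miR-16-5p, which is abundant in red cells and many other cells, it had 2.66, 0.301 and 1.14 reads against 0.62, 0.477 and 0.683, also with overlap (exact permutation test, 2-sided, p = 0.5). UVA replicate 1 stood above the non-irradiated libraries in both ratios, and UVA replicate 3 in the ratio to miR-16-5p as well.

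Relative to miR-142a-3p, a miRNA of all blood-forming lineages that marks white cells in tissue, miR-451a was lower in all 3 UVA libraries, at 3.54, 7.58 and 6.41 reads against 16.4, 9.50 and 10 (difference of mean log2 ratios -1.06, SE 0.42; exact permutation test, 2-sided, p = 0.1, adjusted p = 0.225). miR-142a-3p itself had 835, 68.1 and 100 CPM under UVA against 74.1, 54.3 and 122 CPM in non-irradiated replicates 1 to 3. It was thus high in the same UVA library as miR-451a. The summed level of the 8 leukocyte miRNAs was 705 to 1500 CPM in UVA, highest in replicate 1, and 773 to 1300 CPM in non-irradiated skin. In UVA replicate 1 most of it was miR-142a, with 835 CPM for the 3p arm and 350 CPM for the 5p arm. Within the UVA group miR-150-5p, miR-155-5p, miR-223-3p and both arms of miR-342 were lowest in that library, and miR-223-5p was highest in replicate 3. All 8 were detected in every library. The part of this summed level in the miR-451a values was not tested.

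Relative to miR-1a-3p, which dominates in striated muscle, both miRNAs were higher in UVA skin. miR-451a had 0.0543, 0.0142 and 0.032 reads per read of miR-1a-3p in UVA and 0.00277, 0.00146 and 0.00411 in non-irradiated replicates 1 to 3 (difference of mean log2 ratios 3.51, SE 0.71; exact permutation test, 2-sided, p = 0.1, adjusted p = 0.225). miR-486-5p had 0.00565, 0.00767 and 0.04 reads in UVA and 0.00193, 0.00448 and 0.00547 in non-irradiated skin, close to overlap (difference of mean log2 ratios 1.73, SE 0.99; exact permutation test, 2-sided, p = 0.1, adjusted p = 0.225). miR-1a-3p itself fell by 3.29 on the log2 scale (SE 0.43, edgeR adjusted p = 0.00196). The summed level of the 10 muscle entries was 41900 to 58500 CPM under UVA against 319000 to 479000 CPM in non-irradiated skin, and its part in the miR-486-5p values was not tested. miR-1a-3p made up most of it in every library but UVA replicate 3, where miR-206-3p, a skeletal muscle miRNA, stood at 29600 CPM against 3590 and 4280 CPM in the other UVA libraries and 21000 to 41500 CPM without UVA. That library was also the highest of the UVA group for miR-486-5p. The other muscle miRNAs were mixed. The scarce miR-499-5p also peaked there within the UVA group, at 1.85, 1.3 and 3.48 CPM in UVA replicates 1 to 3. So did the still scarcer miR-206-5p (0.319, 0.145 and 0.922 CPM) and miR-208b-3p (0.0638, 0.0724 and 0.102 CPM). miR-1a-3p, miR-133a-3p and miR-133b-3p did not, nor did the scarce miR-1a-1-5p and miR-133a-5p. In UVA replicates 1 to 3 miR-1a-3p had 54400, 36400 and 20100 CPM and miR-133b-3p had 263, 522 and 180 CPM. miR-133a-3p had 274, 654 and 339 CPM. Of the muscle entries, miR-206-5p was at 0 in all non-irradiated libraries and miR-1a-2-5p in all UVA libraries. Both were scarce elsewhere, miR-206-5p at 0.145 to 0.922 CPM under UVA and miR-1a-2-5p at 0.437 CPM in non-irradiated replicate 3. Since non-irradiated replicates 1 and 2 held few entries with 1 to 9 reads, a value of 0 there is uncertain.

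The other miRNAs of blood and tissue were counted by list. Of 10 further miRNAs that are abundant in red cells, 2 rose and none fell, miR-484 (log2FC 3.44, SE 0.83, edgeR adjusted p = 0.0189) and miR-92a-3p (2.32, SE 0.60, edgeR adjusted p = 0.0242). The background, for this list and those below, was 13.6% of all tested called higher and 8.22% called lower. The most abundant members, miR-22-3p and miR-25-3p, had log2FCs of -1.16 and 1.11 and were not called (edgeR adjusted p of 0.064 and 0.107). The median of this list was 1.43, against 0.27 for all tested. Its summed level was 5300, 8390 and 6700 CPM in UVA and 7230, 6990 and 10400 CPM in non-irradiated replicates 1 to 3. UVA replicate 1 thus had the lowest sum of all libraries. The erythroid median of -1.38 rests on the miR-486 entries and miR-144-5p, whereas miR-451a and miR-144-3p had log2FCs of 0.48 and 1.08. Both calls were lost without UVA replicate 2 (adjusted p of 0.0768 and 0.104), and that of miR-92a-3p also without each non-irradiated library in turn (0.0622 to 0.0802). Scaled by library size alone 7 of the 10 rose, against 24.4% of all tested (5.41% fell), and scaled by the authors' total reads also 7 rose, against 29.1% (4.41% fell). The DESeq2 Wald test called 6 higher and 1 lower, limma-voom 3 and 1, and edgeR with upper-quartile factors 2 and 1. These settings called 38.7%, 30.3% and 20% of all tested in either direction.

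Of 6 miRNAs known to restrain red cell maturation in culture, 2 rose and 1 fell. miR-221-3p, which targets the mRNA of the receptor Kit, rose by 3.22 (SE 0.57, edgeR adjusted p = 0.00647) and its neighbour miR-222-3p by 2.46 (SE 0.64, edgeR adjusted p = 0.0242). miR-150-5p, a lymphocyte miRNA that is also in the leukocyte list, fell by 1.51 (SE 0.47, edgeR adjusted p = 0.0461). The most abundant member, miR-24-3p, had a log2FC of -0.51 and was not called. The call of miR-222-3p was lost without UVA replicate 2 or any single non-irradiated library (adjusted p from 0.0586 to 0.0818). That of miR-150-5p was lost without each library in turn except non-irradiated replicate 2 (0.0578 to 0.104). The list median was 1.09, and that of all tested, for this list and those below, was 0.27.

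Of the 8 leukocyte miRNAs, miR-150-5p alone was called, and miR-142a-3p, another abundant member, had a log2FC of 2.01 (SE 0.90) and was not called. The median was 0.09. Of 6 vascular miRNAs, miR-126a-5p of endothelium and miR-143-3p of smooth muscle fell, by 2.12 (SE 0.56) and 1.59 (SE 0.42), and miR-143-5p rose by 2.36 (SE 0.70), at edgeR adjusted p from 0.0255 to 0.0409. The abundant miR-126a-3p had a log2FC of -0.20, and the median was -0.74. Each of these 3 calls was lost without some single libraries: without UVA replicate 2 and non-irradiated replicate 2 in all 3, without non-irradiated replicate 1 in miR-126a-5p and miR-143-5p, without UVA replicate 3 in miR-143-3p, and without UVA replicate 1 and non-irradiated replicate 3 in miR-143-5p (adjusted p from 0.054 to 0.145).

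Of the 7 tested muscle entries, miR-1a-3p fell, miR-133b-3p, nearly identical to miR-133a-3p and so of uncertain count, rose by 1.84 (SE 0.57, edgeR adjusted p = 0.0459) and 5 were not called, such as the abundant miR-206-3p at -1.16 (SE 0.75). The median was -1.16. Under scaling by library size alone or by the authors' total reads miR-1a-3p was the only member of these lists that fell. The call of miR-133b-3p was lost without UVA replicate 2 or any single non-irradiated library (adjusted p from 0.0604 to 0.197).

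The miRNAs whose pattern was most like that of miR-451a were ranked by Pearson's r of log2 CPM over the 6 libraries, among 474 other named miRNAs tested. This is a description of points that share libraries and depth. The closest was miR-146b-5p (r = 0.975), known from inflammatory signalling, with 2810, 1680 and 1750 CPM under UVA against 2060, 1500 and 2290 CPM in non-irradiated replicates 1 to 3. It kept the same order of libraries as miR-451a (Spearman's rho 1) and an r of 0.945 without UVA replicate 1. Next came miR-144-3p (0.929), both arms of miR-142a (0.895 for 5p and 0.881 for 3p) and miR-5615-5p (0.813), and miR-144-5p ranked 7th (0.765). Without UVA replicate 1 these dropped to 0.778 for miR-144-3p, 0.658 and 0.60 for the arms of miR-142a and 0.215 for miR-5615-5p. Without the 2 libraries farthest from the median they were 0.953, 0.797, 0.887, 0.414 and -0.0036 in the order given. miR-486-5p ranked 332nd (r = -0.257).

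The miRNAs most like miR-486-5p were others. They were miR-673-3p (r = 0.986), miR-532-5p (0.959), miR-370-3p (0.953), miR-574-3p (0.953) and miR-409-3p (0.95), and none of the 5 was called. Without UVA replicate 1 their r lay between 0.931 for miR-574-3p and 0.994 for miR-532-5p. Without the 2 libraries farthest from the median it was 0.917, 0.996, 0.661, 0.777 and 0.842 in the order given. miR-673-3p was scarce, with 0.0638, 0 and 1.43 CPM under UVA against 3.16, 15.0 and 7.57 CPM in non-irradiated replicates 1 to 3. Its r thus depends on low counts. miR-532-5p had 507, 845 and 1540 CPM under UVA against 1670, 2630 and 2850 CPM in non-irradiated replicates 1 to 3. The 3p strand of the same hairpin, miR-486a-3p, ranked 51st (0.844).

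Base composition moved with the high values in UVA replicate 1. The members fall at both ends of the range: 30.0% G and C in miR-144-3p, 30.4% in miR-144-5p and 36.4% in miR-451a, against 61.9% to 65.0% in the entries of miR-486, with a median of 47.6% over all tested. UVA replicate 1 was at least 4-fold above both other UVA libraries, after adding 0.5 CPM, for 17 of the tested miRNAs (3.41%), a threshold set after the values were seen. The first 3 members are among these, with 14 others such as miR-136-5p, miR-19a-3p, both arms of miR-142a and miR-101a-3p. Of the 17, 15 have 40% G and C or less, as have 98 of all tested, of which they make up 15.3%.

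Over all tested miRNAs, the median log2 difference between UVA replicate 1 and the mean of the other UVA libraries was 0.28 at 40% G and C or less and -0.82 at 60% or more. For miR-451a it was 2.36, for miR-144-3p 3.92 and for miR-144-5p 2.21. The part of base composition in these values was not tested. Other libraries stood apart by base composition as well. At 60% G and C or more the median difference from the other libraries of the group was -0.82, -0.02 and 1.06 in UVA replicates 1 to 3. miR-486-5p, at 63.6%, had -0.63, -0.83 and 1.46 there, so it departed from its class in UVA replicate 2. In non-irradiated replicates 1 to 3 the class had -0.77, 0.41 and 0.29, and miR-486-5p had -0.92, 0.43 and 0.49. Between the groups, tested miRNAs of that class had a median log2FC of 1.06, and miR-486-5p had -1.54.

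**Figure D4:**
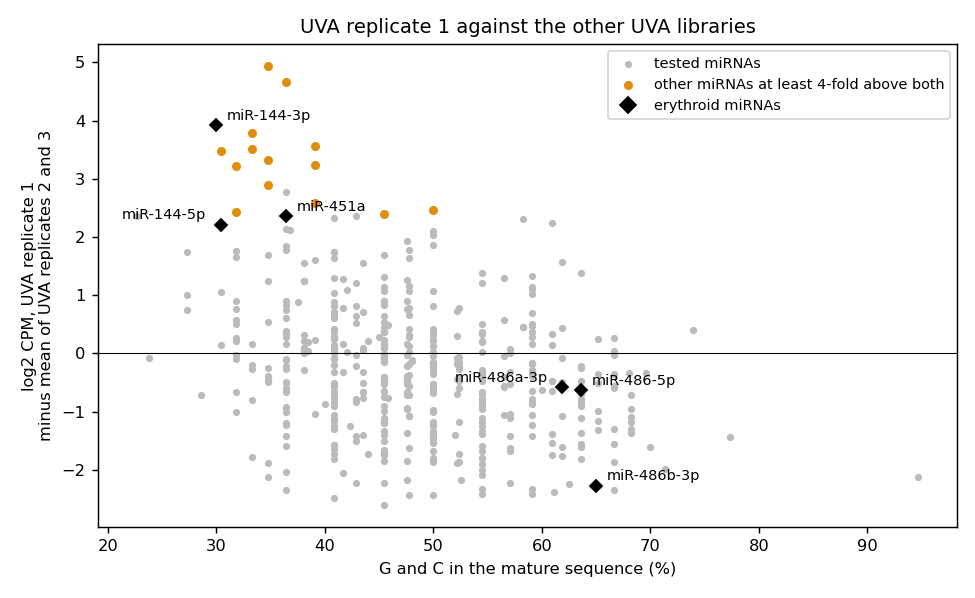
Log2 CPM of UVA replicate 1 minus the mean of UVA replicates 2 and 3, against the percentage of G and C in the mature sequence, for the 499 tested miRNAs. Black diamonds are the erythroid entries and orange points the 14 other miRNAs at least 4-fold above both libraries; miR-451a and the arms of miR-144 lie high at 30.0% to 36.4%, and the miR-486 entries lie below 0 at 61.9% to 65.0%.

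The direction of each member was followed over the main setting and 15 alternatives of scaling, filter, test and libraries. miR-486-5p and miR-144-5p were negative in 16 of 16, with miR-486-5p called in 5 of the 15 alternatives and miR-144-5p in none of them (lowest adjusted p 0.0528). miR-451a was negative in 2 of 16 and miR-144-3p in 1 of 16, the fit without UVA replicate 1 in both, and neither was called in any of the alternatives (DESeq2 gave no adjusted p for miR-144-3p). The share of all tested miRNAs called was 29.9% by library size alone, 33.5% by the authors' total reads, 20% with upper-quartile and 21.6% with median-of-ratios factors, 8.38% of 1480 entries with no filter, and 21.2% with a replicate block. Without UVA replicates 1, 2 and 3 in turn it was 22.0%, 6.74% and 22.5%. For non-irradiated replicates 1, 2 and 3 left out in turn it was 10.4%, 11.6% and 21.1%, and it was 0.168% without the first 2 of these together. Scaled by the authors' total reads, the log2FC was 1.42 for miR-451a and -0.88 for miR-486-5p, beside a median of 1.07 for all tested.

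**Figure D5:**
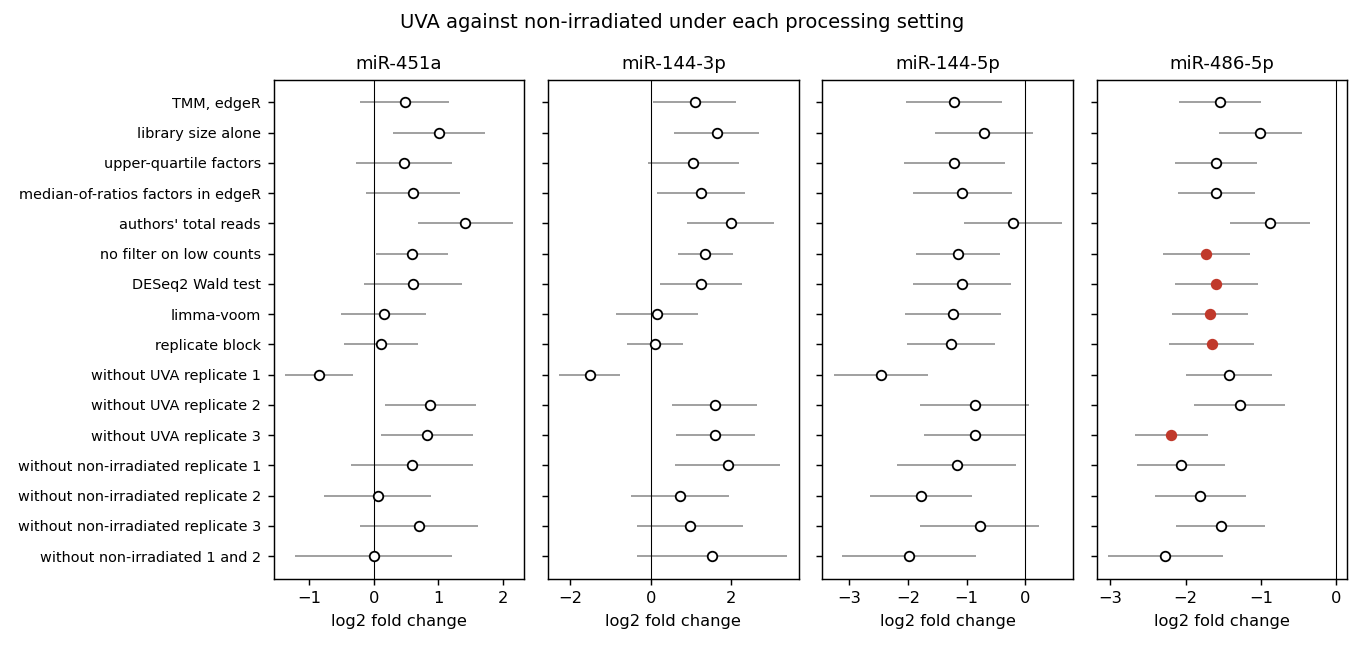
Log2 fold change (log2FC) with bars of 1 SE for miR-451a, both arms of miR-144 and miR-486-5p under 16 processing settings. Red points have an adjusted p of 0.05 or lower and open points a higher one or none (miR-144-3p with DESeq2); miR-486-5p is below 0 throughout, and miR-451a and miR-144-3p change sign without UVA replicate 1.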

How the data were processed

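Small RNA of mouse skin was sequenced in 3 UVA and 3 non-irradiated libraries, from mirVana RNA with TruSeq Small RNA kits, per the labels' protocols. The deposited counts are whole reads per mature miRNA sequence, with identical sequences merged by the authors. The submitters' processing notes name Bowtie; version, build and miRNA release: not given in the sources used here. RPM as deposited by the authors is each count divided by 1 constant per library, which yields their total reads. The authors' deposited table also holds a mean normalized signal per group, the fold of these means, its log2 value, p-values and q-values, per the file headers. From each of the tables, 2 emptied lines were not analysed here.

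The main test of the counts was glmQLFTest in edgeR 4.0.16 (R 4.3.3, TMM, filterByExpr, Benjamini-Hochberg over all 499 tested). The SE of a log2FC is its size over the square root of F. Alternatives used DESeq2 1.42.0 and limma 3.58.1. The edgeR step was checked on simulated counts. Ratios used reads plus 0.5, and exact permutation tests used scipy 1.17.1. No replicate pair agreed within sampling noise. The 9 exact tests were adjusted together. Members and lists were chosen with earlier results of these data known. The rule for named miRNAs took all members, up to 4 called and the 2 most abundant miRNAs of each list, the 5 with the pattern most like miR-451a and miR-486-5p, and those sharing a seed. The leukocyte and maturation lists share miR-150-5p, miR-155-5p and miR-223-3p. miR-146b-5p and the base composition values are described as found.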

Additional observations from a re-analysis of the deposited data

How the results depend on the processing

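Of the 109 called miRNAs 68 were higher and 41 lower. These counts were 122 and 27 with library size alone, 145 and 22 by the authors' total reads, 114 and 77 by DESeq2, 84 and 67 with limma-voom, and 0 and 1 without non-irradiated replicates 1 and 2 together. With 1 library left out in turn they ranged from 20 to 85 and from 18 to 60. The log2 fold change then ranged from -0.85 to 0.87 for miR-451a, from -1.51 to 1.91 for miR-144-3p and from -2.19 to -1.28 for miR-486-5p. Without non-irradiated replicates 1 and 2 it was -0.00012 for miR-451a and 5.14 (SE 4.26) for miR-486b-3p, which the remaining control holds at 0 reads, and the lone control is assumed to vary like the other group. miR-486-5p was called without a filter (-1.72), with DESeq2 (-1.59), limma-voom (-1.67) and the replicate block (-1.65, adjusted p = 0.0468). The cause was not tested.

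The replicate block called 106 miRNAs. Same-numbered libraries share only a number: the correlations of their deviations were 0.0849, -0.0757 and -0.0269, and not every library was closest to its own number.

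The difference in the share of reads was -0.118 percentage points without the 5 most abundant other entries in the denominator, and from -0.064 to 0.0966 with 1 library left out. The differences in log2 ratio then ranged from -0.43 to 0.90 for miR-451a over miR-126a-3p, from -0.0027 to 1.57 over miR-16-5p, and from -0.27 to 0.95 for miR-486-5p over its 3p reads. The other ratios kept their sign.

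Members called higher ranged, with 1 library left out, from 0 to 3 in the red cell list, 1 to 3 in the maturation list, and 0 to 1 in the leukocyte, vascular and muscle lists. Members called lower ranged from 0 to 1 in the maturation and leukocyte lists, 0 to 2 in the vascular list and 1 to 2 in the muscle list. Scaled by library size alone, or else by the authors' total reads, 7 and 7 rose in the red cell list and 1 and 2 in the leukocyte list, 2 rose in the vascular list with total reads, and 0 fell in the maturation, leukocyte and vascular lists. Low counts limit the 3p entries of miR-486.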
